A study of Rattus norvegicus with 48 samples.

Results

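Rbm3 (Ensembl gene ENSRNOG00000005387) was 1 of the 31998 genes of a rat skeletal muscle RNA-seq table, and its row was followed over all 48 libraries. It was picked out because its level was higher under immobilization in both muscles and both rat lines, so the difference between immobilized and control libraries is given here as a description with its error and is not tested. Plantaris, a hindlimb muscle made mainly of fast fibres, and soleus, made mainly of slow fibres, came from 24 female rats aged 14 months. The rats belonged to generation 19 of 2 lines bred from a heterogeneous stock for a low response (LRT) or a high response (HRT) to endurance training, and per the study's methods they had all been phenotyped by treadmill training early in adult life. In the immobilized groups (HI) a hindlimb was cast for 3 days with the foot held in plantar-flexion and the muscles were taken from the cast limb, while the control groups (CTRL) were separate rats without a cast. All rats were anaesthetized with isoflurane for muscle removal, and puromycin was injected shortly before it to label newly made protein. The methods also describe isoflurane ahead of the casting, and describe none for the control rats at that time. No limb or body temperature is reported there. Muscle, line and treatment made 8 groups with 6 libraries in each, and the cast limb was compared with limbs of other rats and not with the other limb of the same rat.

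Rbm3 encodes RNA-binding motif protein 3, a small protein with a single RNA recognition motif followed by a glycine-rich tail. It is known as a cold-shock protein because its mRNA and protein rise when mammalian cells are cooled mildly, when most protein synthesis slows. It binds mRNA and ribosomal subunits and is known to favour translation, and in skeletal muscle it has been studied in disuse, ageing and hibernation. Its closest relative among the cold-inducible proteins, Cirbp, was not analysed here.

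The stretch just before the gene is shown because the level of the Rbm3 transcript is the measure followed here. In the RefSeq annotation of the rat build GRCr8, Rbm3 lies on chromosome X at chrX:17020863-17024341 on the plus strand, matched by symbol, and the counts were made on another build. The 208 bases before the annotated start, chrX:17020655-17020862, are given 5′ to 3′ with matches to 2 of the motifs searched in capitals:

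Rbm3 upstream: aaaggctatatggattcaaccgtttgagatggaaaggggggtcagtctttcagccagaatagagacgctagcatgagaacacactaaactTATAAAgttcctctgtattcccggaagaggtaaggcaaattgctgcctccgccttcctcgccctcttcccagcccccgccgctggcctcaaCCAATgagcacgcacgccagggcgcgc

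Of 6 motifs searched on both strands, the CCAAT box (CCAAT) matched once, 27 bases before the start, and it was present in 29.8% of the 33469 rat promoter windows of the same length. The TATA box letters (TATAAA) matched once, 118 bases before the start, against 10.4% of windows. The GC box (GGGCGG, in 25.4% of windows), the E-box read by clock factors (CACGTG, 4.44%), the heat shock element core (GAANNTTC, 5.99%) and the D-box (TTATGNAA, 2.9%) had no match in this window, which says only that these letters are not there. The window held 54.3% G and C, against a median of 51.0% over all windows.

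Library totals were 26.8 to 36.4 M estimated counts (median 30.4 M), and RNA integrity numbers (RIN) ran from 7.8 to 8.6. The fast fibre markers separated the labelled muscles and the slow ones did so in part. The summed level of 6 fast fibre genes ran from 7117 to 31590 CPM (counts-per-million units) in plantaris and from 1676 to 4345 CPM in soleus with no overlap. The sum of 4 slow fibre genes was 83.9 to 550 CPM in plantaris and 354 to 2102 CPM in soleus, where LRT HI replicates 1, 3 and 4 and HRT HI replicate 1 fell within the plantaris range, and of these genes Pln had like medians in the muscles (25.2 and 22.8 CPM). Rbm3 was counted deeply, with 923 to 10467 estimated counts a library, and at the lowest of these the counting error alone was 3.29%. Its level is given below as CPM after scaling by TMM (trimmed mean of M values, which aligns the bulk of genes between libraries). In bulk tissue, fewer cells of a type and less RNA per cell cannot be told apart.

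In CTRL muscle Rbm3 was lowest in HRT plantaris, with a lowest, median and highest library of 34.9, 46.3 and 46.6 CPM and a mean of 43.1 ± 5.27 CPM (SD, n = 6). LRT plantaris followed with 41.1, 54.2 and 61.1 CPM and a mean of 52.9 ± 7.76 CPM (n = 6). The ranges of the lines overlapped there. In soleus, HRT CTRL libraries ran from 35.6 through a median of 63.5 to 84.4 CPM, with a mean of 61.4 ± 17.6 CPM (n = 6), the widest relative spread of the CTRL groups. LRT CTRL soleus libraries ran from 59.6 through 79.9 to 94.97 CPM, with a mean of 79.1 ± 12.8 CPM (n = 6). The lowest soleus values, 35.6 CPM in HRT replicate 1 and 50.0 CPM in HRT replicate 2, stood in libraries whose summed level of 7 fibroblast genes was 2461 and 1965 CPM, against 331 to 730 CPM in the other HRT CTRL soleus libraries. The part of that tissue difference in the Rbm3 value was not tested.

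Under HI the mean level was higher in each muscle and line. The SD of log2 CPM was 0.78 in LRT plantaris HI against 0.22 in CTRL, 0.67 against 0.19 in HRT plantaris, 0.46 against 0.24 in LRT soleus and 0.45 against 0.45 in HRT soleus. The HRT HI spread leaned on replicate 1. Without it the SD in CPM was 18.4 in HRT plantaris HI and 16.2 in HRT soleus HI, against 65.5 and 48.5 with it. HRT plantaris libraries ran from 73.0 through a median of 80.0 to 241 CPM, with a mean of 112 ± 65.5 CPM (n = 6). LRT plantaris libraries ran from 59.7 through 131 to 285 CPM, with a mean of 153 ± 80.2 CPM (n = 6). HRT soleus libraries ran from 93.8 through 120 to 227 CPM, with a mean of 133 ± 48.5 CPM (n = 6). LRT soleus libraries ran from 98.2 through 178 to 255 CPM, with a mean of 177 ± 51.3 CPM (n = 6), the highest group mean. Ordered by mean, all 4 CTRL groups came before all 4 HI groups, and the ranges of all 7 pairs of neighbours in that order overlapped.

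**Figure D1:**
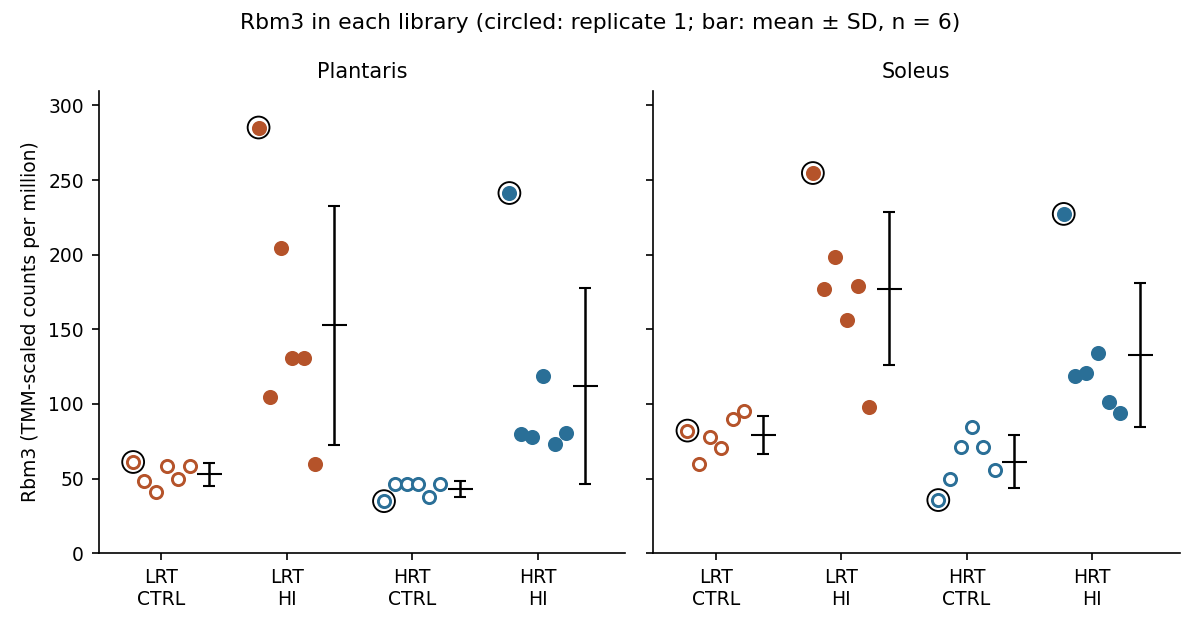
Rbm3 level (vertical axis, CPM after TMM scaling) in each of 48 libraries by line and treatment, plantaris on the left and soleus on the right; open points are CTRL, filled points are HI, circles mark replicate 1 and bars give the mean ± SD of 6 libraries. HI libraries sit above the CTRL libraries of their muscle and line except LRT plantaris HI replicate 6 at 59.7 CPM, and HI replicate 1 is the highest point of each HI group.

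Of the 24 HI libraries, 23 lay above every CTRL library of the same muscle and line. The exception was LRT plantaris HI replicate 6 at 59.7 CPM, which fell within the CTRL range of 41.1 to 61.1 CPM. Over all 16960 genes tested, 4.69% had all 6 HI libraries above all 6 CTRL libraries in LRT plantaris, 3.27% in HRT plantaris, 1.79% in LRT soleus and 2.25% in HRT soleus. These shares describe the setting in which the gene was chosen and nothing is read from them.

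From the fit over all genes, HI minus CTRL on the log2 scale was 1.55 (SE 0.28) in LRT plantaris and 1.42 (SE 0.28) in HRT plantaris, or 2.92-fold and 2.67-fold. In soleus it was 1.14 (SE 0.27) in LRT and 1.09 (SE 0.27) in HRT, or 2.20-fold and 2.12-fold. A log2 fold change at or above that of Rbm3 was found for 1.08%, 0.825%, 1.66% and 1.9% of the 16960 genes in that order of comparisons. The gene was chosen for this direction, and nothing is read from these shares. A rise that passed the test in all 4 comparisons was found for 136 genes, 0.802% of those tested. With library totals in place of TMM the median of all genes shifted by 0.23, 0.15, 0.14 and 0.07 in the same order, and Rbm3 stood at 1.83, 1.58, 1.29 and 1.17.

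Replicate 1 was the highest HI library in each of the 4 groups, at 285 CPM against 205 CPM for the next library in LRT plantaris, 241 against 119 in HRT plantaris, 255 against 199 in LRT soleus and 227 against 134 in HRT soleus. The same held for 158 genes, 0.932% of those tested, Rbm3 among them. Without these 4 libraries the mean HI level was 126 ± 52.7 CPM in LRT plantaris, 85.9 ± 18.4 in HRT plantaris, 162 ± 38.6 in LRT soleus and 114 ± 16.2 in HRT soleus (SD, n = 5). The HI difference was then 1.31 (SE 0.20), 1.06 (SE 0.20), 1.00 (SE 0.20) and 0.80 (SE 0.20) on the log2 scale. In LRT plantaris HI, replicate 1 had the lowest fast fibre sum, 7117 CPM, next to 7956 CPM in replicate 3 and 13590 to 19840 CPM in the others. In HRT plantaris HI the lowest was replicate 4 at 9392 CPM, and replicate 1 stood at 14830 CPM. The part of fibre markers in the Rbm3 level was not tested.

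The comparison of the lines asks whether the low and high responders differed in Rbm3, and the choice of the gene did not use it. Rbm3 was higher on average in LRT than in HRT in each of 4 settings, but none of these differences passed the test. In CTRL the log2 difference LRT minus HRT was 0.30 (SE 0.27) in plantaris, adjusted p = 0.76 in edgeR, with a 95% interval of -0.25 to 0.85. In CTRL soleus it was 0.35 (SE 0.27), adjusted p = 0.57 in edgeR, interval -0.20 to 0.90. In HI plantaris it was 0.43 (SE 0.27), adjusted p = 0.41 in edgeR, interval -0.12 to 0.97. In HI soleus it was 0.40 (SE 0.27), adjusted p = 0.35 in edgeR, interval -0.14 to 0.95. Of all genes tested, 0.525%, 1.45%, 2.42% and 12.2% passed in these 4 comparisons in the same order. Each interval included 0 and reached 0.85 or more, so equality of the lines is not shown. The HI plantaris value leaned on single libraries, since it was 0.16 without LRT replicate 1 and 0.81 without HRT replicate 1 (edgeR adjusted p = 0.84 and 0.055). The HI soleus value was 0.64 without HRT replicate 1 (edgeR adjusted p = 0.13), and the CTRL soleus value was 0.17 without HRT replicates 1 and 2 (edgeR adjusted p = 0.94).

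The mean of Rbm3 was lower in plantaris than in soleus in each line and treatment, and without a block none of the 4 differences passed the test in edgeR. The log2 difference plantaris minus soleus was -0.52 (SE 0.28) in LRT CTRL, adjusted p = 0.16 in edgeR. Over the 6 LRT CTRL numbers the plantaris and soleus libraries of equal number deviated together (r over genes 0.136 to 0.277), and with the rat as a block the difference was -0.51 (SE 0.13), adjusted p = 0.0025 in edgeR, so that the lower plantaris level passed the test. The labels do not state that equal numbers mark the same rat, and the block rests on these correlations. It was fitted over all 48 libraries, those of HRT CTRL among them. In HRT CTRL the difference was -0.47 (SE 0.28), adjusted p = 0.18 in edgeR, and -0.70 (SE 0.31) without soleus replicates 1 and 2, adjusted p = 0.076. With the rat as a block it was -0.43, adjusted p = 0.0066 in edgeR. Pairs 1 and 2 of HRT CTRL had an r over genes of -0.05 and -0.03, so no call is read from that block. In LRT HI it was -0.11 (SE 0.30), adjusted p = 0.82 in edgeR, interval -0.73 to 0.50, and in HRT HI -0.14 (SE 0.31), adjusted p = 0.76 in edgeR, interval -0.76 to 0.48. Leaving out 1 library moved the LRT HI value between -0.42 and -0.01 and the HRT HI value between -0.48 and 0.18, so the direction in HRT HI turned. Without RIN in the fit the values were -0.22 and -0.25, and RIN ran from 8.3 to 8.6 in plantaris and from 7.8 to 8.2 in soleus of LRT HI, and from 7.9 to 8.5 and from 7.8 to 8.2 in HRT HI. With the rat as a block these HI differences were -0.17 (SE 0.14) and -0.18 (SE 0.14), and neither passed (edgeR adjusted p = 0.39 and 0.33). Of all genes tested, 32.6% passed between the muscles without a block in LRT CTRL, 38.8% in HRT CTRL, 29.8% in LRT HI and 34.2% in HRT HI. No such share is given here for the fit with the rat as a block, so its call in LRT CTRL has no background beside it.

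The change with HI was given the same treatment without a test, since it is made of the contrasts that chose the gene. The HI change in LRT minus that in HRT was 0.13 (SE 0.38) on the log2 scale in plantaris and 0.05 (SE 0.38) in soleus. The HI change in plantaris minus that in soleus was 0.41 (SE 0.39) in LRT and 0.33 (SE 0.39) in HRT. The 95% intervals of these 4 values show the error of the fit and are not used as a test. Leaving out 1 library moved the differences between the lines from -0.14 to 0.51 in plantaris and from -0.07 to 0.30 in soleus, and those between the muscles from 0.11 to 0.53 in LRT and from -0.04 to 0.62 in HRT, so 3 of the 4 changed sign. Of all genes tested, 0% passed for a difference of the HI change between the lines in plantaris, 0.0295% between the lines in soleus, 2.18% between the muscles in LRT and 0.0943% between the muscles in HRT. The slope of Rbm3 on RIN, the index of RNA integrity, was -0.30 per unit (SE 0.41), adjusted p = 1 in edgeR, and 0% of the genes tested passed for RIN. It ran from -0.56 without HRT plantaris HI replicate 6 to -0.10 without LRT plantaris HI replicate 6.

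**Figure D2:**
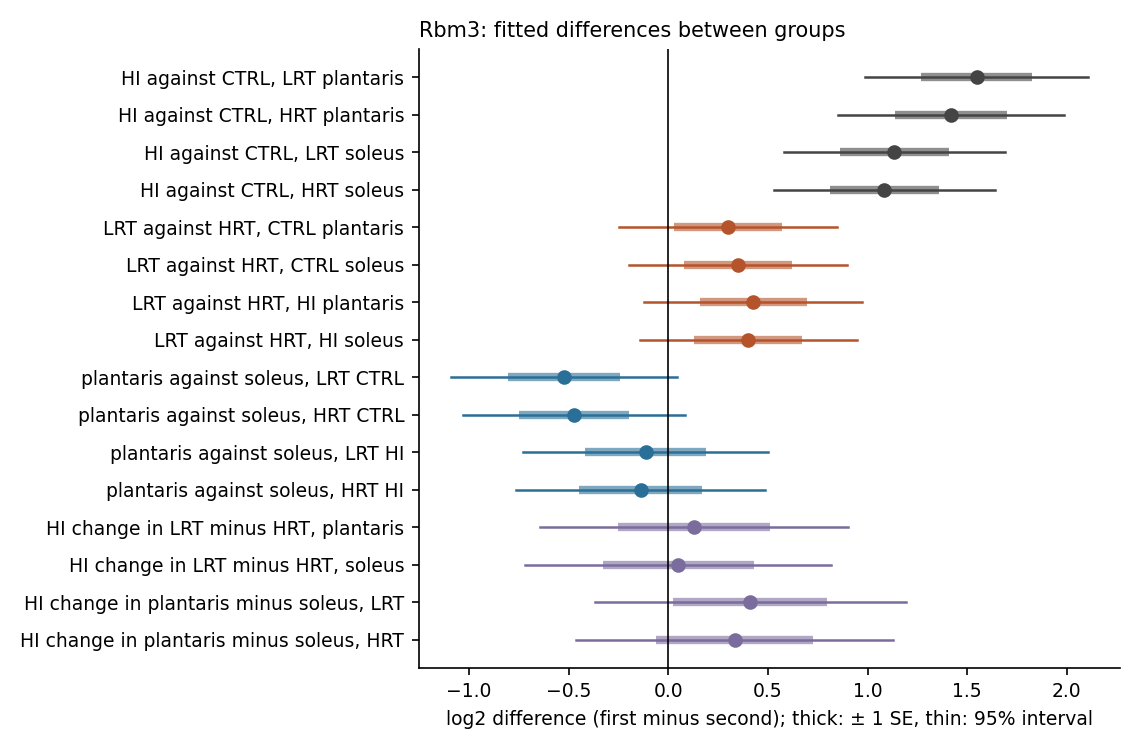
Fitted log2 differences of Rbm3 (horizontal axis, first named group minus second) for 4 HI comparisons, 4 comparisons of lines, 4 of muscles and 4 differences of the HI change; points are estimates, thick bars ± 1 SE and thin bars 95% intervals. The HI comparisons lie between 1.09 and 1.55, and the intervals of the lines and of the muscles include 0. The intervals of the HI comparisons, on which the gene was chosen, and of the differences of the HI change show error only.

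Rbm3 varied together in the muscles of equal replicate number. Taking each library's deviation from its group mean on the log2 CPM scale removed the effect of treatment, line and muscle, and over 24 same-numbered pairs the plantaris and soleus deviations had a Pearson r of 0.78 (permutation p = 0.00011, 2-sided, 100000 resamples within line and treatment) and a Spearman rho of 0.63 (permutation p = 0.0019). In HRT HI replicate 1 the deviations were 1.26 in plantaris and 0.84 in soleus, and in LRT HI replicate 1 they were 1.07 and 0.58. In LRT HI replicate 6 they were -1.18 and -0.80, so this number was low in both muscles. The HRT CTRL numbers, of which pairs 1 and 2 did not deviate together over genes, are among the 24. Without them r was 0.88 (n = 18, permutation p = 0.0002). The share of all genes with such an r over the pairs was not counted, and nothing particular to Rbm3 is read from it.

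With the 2 pairs farthest from the median in plantaris left out, r was 0.60 (n = 22, permutation p = 0.0038), and without the HI replicate 1 pairs it was 0.62 (n = 22, permutation p = 0.0042). Within line and treatment the values of r were highest in the HI rats. Within LRT HI r was 0.94 (n = 6, exact permutation p = 0.0083) and rho 0.83 (exact permutation p = 0.058), and within HRT HI r was 0.95 (n = 6, exact permutation p = 0.017) and rho 0.60 (exact permutation p = 0.24). Within CTRL it was not detectable at 6 pairs, with r of 0.28 in LRT (exact permutation p = 0.59) and 0.54 in HRT (exact permutation p = 0.3). The deviations had the same sign in 10 of 12 HI pairs and in 7 of the CTRL pairs. A difference between HI and CTRL in this relation was not tested.

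**Figure D3:**
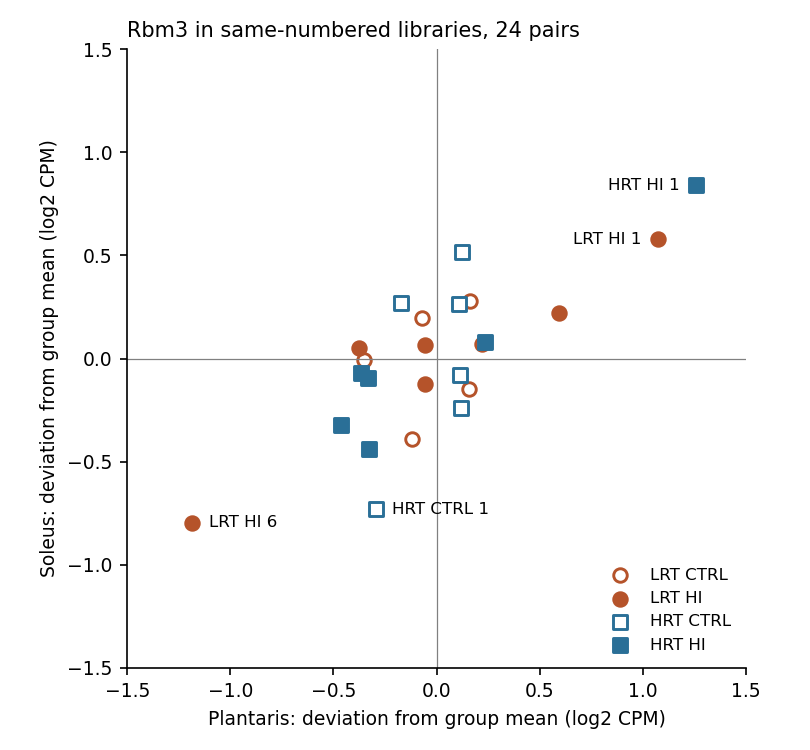
Deviation of Rbm3 from its group mean in plantaris (horizontal axis, log2 CPM) against soleus (vertical axis, log2 CPM) for 24 pairs of libraries with the same line, treatment and number; circles are LRT, squares HRT, filled points HI. The pairs numbered 1 of both HI groups lie at the upper right, LRT HI 6 lies at the lower left, and r over all pairs is 0.78.

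Within the HI rats the level of Rbm3 was set against 6 genes known from muscle disuse, with deviations taken from the line means in 12 HI libraries of each muscle and p-values adjusted over the 12 relations. In plantaris Rbm3 went with the muscle ubiquitin ligases Fbxo32 (atrogin-1; r = 0.78, permutation adjusted p = 0.024) and Trim63 (MuRF1; r = 0.72, permutation adjusted p = 0.049). It also went with Ampd3, an AMP deaminase (r = 0.84, permutation adjusted p = 0.019), and with Hdac4, a class IIa histone deacetylase (r = 0.65, permutation adjusted p = 0.049). The stress gene Gadd45a had an r of 0.67 (permutation adjusted p = 0.058). Mt1, a metallothionein, had an r of -0.17 (permutation adjusted p = 0.62), although its mean was higher under HI like those of the others.

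In soleus the Hdac4 relation passed as well (r = 0.70, permutation adjusted p = 0.049), while Trim63 (r = 0.45), Fbxo32 (r = 0.47), Ampd3 (r = 0.55), Gadd45a (r = 0.59) and Mt1 (r = -0.31) did not, with permutation adjusted p from 0.094 to 0.38. By rank, Ampd3 and Gadd45a also passed in soleus (rho 0.69 and 0.71, permutation adjusted p = 0.026 and 0.028), but neither did with library totals as scaling (permutation adjusted p = 0.052 and 0.094) or without HI replicate 1 (permutation adjusted p = 0.22 and 0.071). Without the 2 libraries farthest from the median of Rbm3, r in plantaris was 0.86 for Ampd3, 0.88 for Trim63 and 0.84 for Fbxo32 (n = 10, permutation adjusted p = 0.0078 each). For Hdac4 it was 0.53 in plantaris and 0.67 in soleus (n = 10, permutation adjusted p = 0.14 and 0.055), so neither passed any longer, and the soleus r was about as large as with all 12 libraries. Whether the relations differ between the muscles was not tested.

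Many other genes followed Rbm3 as closely in the same libraries. In plantaris an r at or above that of Ampd3 was found for 2.96% of all genes, of Fbxo32 for 5.79%, of Trim63 for 9.34% and of Hdac4 for 12.9%, and in soleus an r at or above that of Hdac4 was found for 4.73%. Over the 12 HI libraries the Rbm3 deviations had an r of -0.85 in plantaris and -0.81 in soleus with principal component 2 of all other genes, which held 12.7% of the variance of the 48 libraries and was signed to be lower under HI. With the log2 fast fibre sum r was -0.67 in plantaris and -0.13 in soleus. Nothing particular to the disuse genes is read from these relations, and the part of the shared axis in them was not tested.

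**Figure D4:**
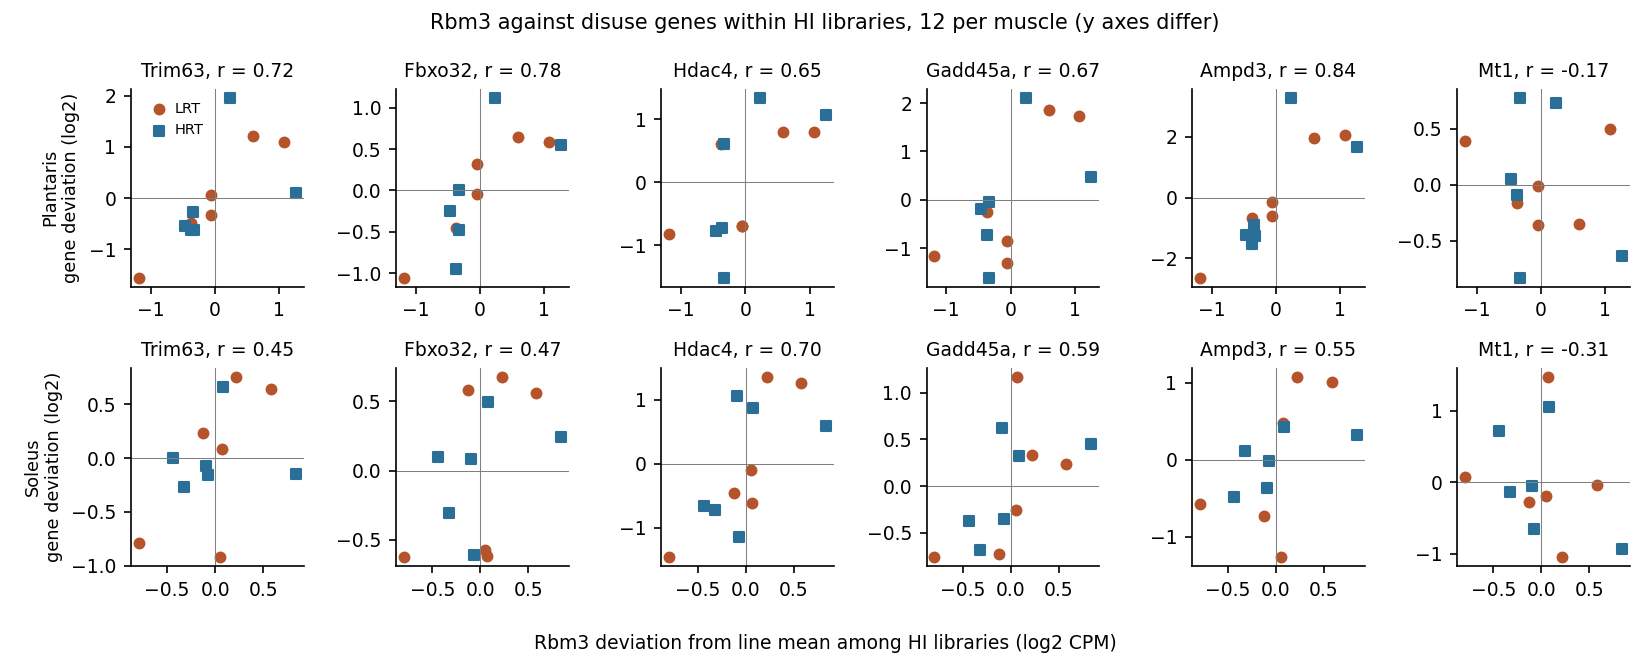
Deviation from the line mean among 12 HI libraries of each muscle, Rbm3 on the horizontal axis and each of 6 disuse genes on the vertical axis (both log2 CPM; vertical scales differ), plantaris above and soleus below; circles are LRT and squares HRT. Ampd3, Fbxo32 and Trim63 climb with Rbm3 in plantaris (r = 0.84, 0.78 and 0.72), and Mt1 has no such slope (r = -0.17).

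The genes whose pattern was most like that of Rbm3 were taken from the 1147 other tested genes with a paired symbol, by Pearson r of log2 CPM. The symbols were known only for genes that the study itself had called on these samples. Over all 48 libraries, which share the group differences, they were Tmem86a (r = 0.90), LOC102552920 (0.88), Gabarapl1 (0.85), Fbxo30 (0.85) and Tp53inp1 (0.83), where the 95th percentile of r over all 16959 other genes was 0.615. With genes that had no paired symbol counted in, their ranks were 3, 5, 20, 24 and 41. Gabarapl1 belongs to the Atg8 family that coats autophagosomes, Fbxo30 is an F-box protein of a ubiquitin ligase, and Tp53inp1 is a stress-induced protein with a part in autophagy. The highest r of any gene was 0.91, for ENSRNOG00000015999.

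With the group means removed, the 5 were Creb3 (r = 0.81), Fbxo30 (0.79), Psmd8 (0.79), LOC102552920 (0.79) and Psmb3 (0.78), against a 95th percentile of 0.587 and a median of -0.01 over all genes. Their ranks over all 16959 other genes were 50, 64, 66, 68 and 87, so they were not the genes closest to Rbm3. The highest r of deviations of any gene was 0.89, for ENSRNOG00000000236. Creb3 is a transcription factor anchored in the endoplasmic reticulum membrane, and Psmd8 and Psmb3 are subunits of the regulatory and core particles of the proteasome. Fbxo30 and LOC102552920 were on both lists. Over the 44 libraries without HI replicate 1, the r of deviations was 0.76 for Fbxo30, 0.71 for Psmd8, 0.68 for Psmb3, 0.67 for Creb3 and 0.66 for LOC102552920. HI minus CTRL of Fbxo30 was 1.89 (SE 0.31) in LRT plantaris, 1.08 (SE 0.31) in HRT plantaris, 0.78 (SE 0.30) in LRT soleus and 0.66 (SE 0.30) in HRT soleus on the log2 scale, a larger fall from plantaris to soleus than the 1.55, 1.42, 1.14 and 1.09 of Rbm3. A difference between these genes was not tested. These correlations are descriptions over libraries that share rats and scaling.

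A further 4 groups of genes were set beside Rbm3, made of genes with a known symbol, which the study had chosen on these samples, so that their counts are not independent evidence of a change or its direction. Over all genes tested, 15.1% rose and 13.6% fell under HI in LRT plantaris at an edgeR adjusted p under 0.05, 5.11% and 5.85% in HRT plantaris, 7.36% and 6.58% in LRT soleus, and 7.95% and 8.23% in HRT soleus. In either direction this was 28.7%, 11%, 13.9% and 16.2% of genes. The median log2 difference of all genes was between 0.010 and 0.018.

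Genes of RNA handling and translation, the processes in which Rbm3 itself acts, moved in both directions. Of 22 genes, 12 rose and 7 fell in LRT plantaris (median log2 difference 1.06), 5 rose and 3 fell in HRT plantaris (median 0.55), 4 rose and 3 fell in LRT soleus (median 0.08), and 2 rose and 2 fell in HRT soleus (median 0.01). With library totals as scaling, 9 rose and 3 fell in HRT plantaris. Eif4ebp1, the inhibitor of the cap-binding protein eIF4E, rose in all 4 comparisons (1.09, 0.74, 0.97 and 1.00, each SE 0.22, edgeR adjusted p from 0.00026 to 0.025). Eif4g3, a scaffold of the cap-binding complex, rose in plantaris (1.16 in LRT and 1.00 in HRT, SE 0.17) and stood at 0.20 and -0.03 in soleus. Cpeb1, which binds cytoplasmic polyadenylation elements, rose in LRT plantaris and in both soleus groups (1.04, 0.86 and 0.65). Zc3h12a, an RNase, rose by 1.59 (SE 0.28) in LRT plantaris and was at 0.34 in HRT plantaris. Ppan, Rrp12, Nol8 and Dhx37, each known from ribosome assembly, rose in LRT plantaris (1.45, SE 0.26; 1.39, SE 0.29; 1.34, SE 0.25; 1.30, SE 0.22), where Cmss1 fell (-1.89, SE 0.32) and Nsun4, of the mitochondrial ribosome, was at 0.19 (SE 0.24). Cmss1 also fell in HRT plantaris (-1.28, SE 0.31), where Ppan (0.59, SE 0.27) and Rrp12 (0.70, SE 0.29) did not pass, and Nsun4 fell in HRT soleus (-1.10, SE 0.25). In soleus Ppan was at 0.09 in LRT and -0.02 in HRT and Rrp12 at 0.25 and -0.59, and none of these passed. Nol8 (1.09, SE 0.25) and Dhx37 (0.86, SE 0.22) also rose in LRT soleus, and in HRT plantaris (0.74, SE 0.25, and 0.90, SE 0.22), and stood at 0.30 and 0.37 in HRT soleus. Among those that fell, Slbp, the histone mRNA stem-loop binding protein, was at -1.20 in LRT plantaris and -0.83 in HRT plantaris (SE 0.16), and the nuclear exporter Xpo1 was at -0.93 in LRT soleus and -0.76 in HRT soleus (SE 0.17).

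Most of the heat shock proteins and chaperones, many of which are induced by warming, fell in soleus. Of 13 genes, 11 fell and 1 rose in LRT soleus (median log2 difference -0.9996), and 9 fell and 0 rose in HRT soleus (median -0.95). Hspa1b, an inducible Hsp70, fell in soleus, with a log2 difference of -2.64 (SE 0.62) in LRT and -2.56 (SE 0.62) in HRT and edgeR adjusted p of 0.0035 and 0.0044. Hspa5, the Hsp70 of the endoplasmic reticulum, fell as well (-1.36 and -0.95, SE 0.25), as did Hsph1, an Hsp110 (-0.99, SE 0.23, and -1.03, SE 0.24). The gene that rose was Dnajc6, which serves the uncoating of clathrin vesicles (0.93, SE 0.31, edgeR adjusted p = 0.036), and this call was lost with limma-voom, with the replicate number as block, with soleus fitted alone and without HI replicate 1. In plantaris 2 fell and 1 rose in LRT (median -0.33) and 3 fell in HRT (median -0.33). With library totals as scaling, 1 fell and 2 rose in LRT plantaris (median -0.06) and 2 fell in HRT plantaris (median -0.16). Without HI replicate 1, 6 fell in LRT soleus and 9 in HRT soleus. With each muscle fitted alone, 7 and 5 fell. The soleus list medians stayed close to those above, at -0.91 and -0.92 without HI replicate 1 and at -0.99 and -0.97 with each muscle alone.

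Clock genes also moved with HI, and muscles were taken on the same day in all groups per the methods, while the hour is not given in the sources used here. Of 10 genes, 3 rose and 2 fell in LRT plantaris, 4 rose and 2 fell in HRT plantaris, 4 rose and 2 fell in LRT soleus, and 7 rose and 3 fell in HRT soleus. Tef, a transcription factor of the D-box, rose in all 4 comparisons (0.48, 0.84, 1.21 and 1.30, SE 0.17 to 0.18, edgeR adjusted p from 3.1e-06 to 0.03). Npas2, a partner of the core activator Arntl, fell in all 4 (-1.53, -1.70, -1.52 and -1.67, SE 0.28 to 0.29). Per2, a core repressor, rose in 3 of them and stood at 0.20 (SE 0.20) in LRT soleus.

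Disuse genes rose in plantaris, and fewer of them passed in soleus. Of 10 genes, 10 rose in LRT plantaris (median log2 difference 2.62), 8 in HRT plantaris (median 1.90), 5 in LRT soleus (median 1.19) and 4 in HRT soleus (median 0.38), and none fell by the edgeR test. Trim63 rose by 2.60 (SE 0.37) and 1.62 (SE 0.37) in LRT and HRT plantaris and was at 0.47 (SE 0.36) and 0.21 (SE 0.36) in soleus, and Fbxo32 rose by 2.51 (SE 0.34) and 1.58 (SE 0.34) and was at 0.74 and 0.36 in soleus. Hdac4, Gadd45a, Mt1 and Mt2A rose in all 4 comparisons, as Rbm3 was higher in all 4. Hdac4 was at 2.83, 2.29, 2.44 and 2.02 (SE 0.44 to 0.45). Summed fibre markers moved in the same libraries: the median fast fibre sum was 29170 CPM in CTRL and 14240 CPM in HI of LRT plantaris, 21120 and 16280 CPM in HRT plantaris, 3819 and 2669 CPM in LRT soleus, and 1996 and 2252 CPM in HRT soleus. In LRT plantaris the fast fibre sum was 23750 to 31590 CPM in CTRL and 7117 to 19840 CPM in HI, with no overlap. In HRT plantaris it was 19220 to 22590 CPM in CTRL and 9392 to 18380 CPM in HI, again with no overlap, while the soleus ranges overlapped. The median slow fibre sum was 410 CPM in CTRL and 133 CPM in HI of LRT plantaris, 434 and 240 CPM in HRT plantaris, 1738 and 769 CPM in LRT soleus, and 1810 and 1067 CPM in HRT soleus. The sum of 3 myogenic regulators had a median of 147 CPM in CTRL and 269 CPM in HI of LRT plantaris, 139 and 123 CPM in HRT plantaris and 195 and 140 CPM in LRT soleus, and in HRT soleus it was 153 to 262 CPM in CTRL and 115 to 141 CPM in HI with no overlap. The summed level of 7 leukocyte genes was higher in HRT soleus HI (32.3 to 57.2 CPM, median 41.0) than in HRT soleus CTRL (21.8 to 31.2 CPM, median 24.8) with no overlap, while the HI and CTRL ranges overlapped in the other groups. The median fibroblast sum in plantaris was 569 CPM in LRT CTRL and 233 CPM in LRT HI, and 715 CPM in HRT CTRL and 320 CPM in HRT HI. In soleus it was 557 CPM in LRT CTRL and 327 CPM in LRT HI, and 696 and 531 CPM in HRT. The median red blood cell sum was 297 CPM in CTRL and 1156 CPM in HI of HRT soleus. These medians were 678 and 949 CPM in LRT soleus, 374 and 299 CPM in LRT plantaris, and 322 and 400 CPM in HRT plantaris. The red blood cell sum reached 3078 CPM in plantaris and 10600 CPM in soleus of HRT HI replicate 5. Rbm3 was there at 73.0 and 102 CPM, the lowest and the second-lowest of those groups. The part of fibre, myogenic, leukocyte, fibroblast or blood markers in these changes was not tested.

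**Figure D5:**
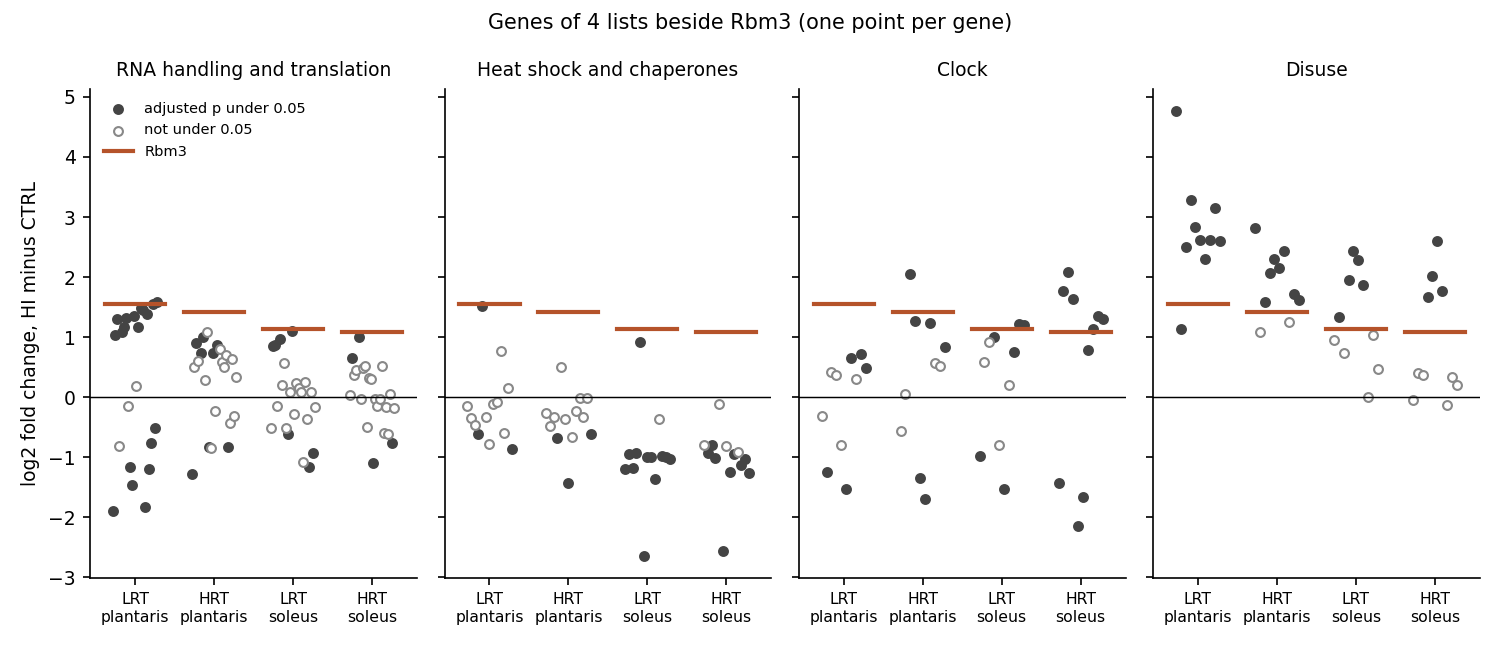
Log2 fold change, HI minus CTRL (vertical axis), of each gene of 4 lists in the 4 comparisons of line and muscle (horizontal axis); filled points passed an adjusted p under 0.05, open points did not, and the coloured bar is Rbm3. The disuse genes lie above the Rbm3 bar in LRT plantaris except 1, and the heat shock genes lie mostly below 0 in soleus, where Rbm3 is at 1.14 and 1.09.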

How the data were processed

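RNA from homogenized tissue of plantaris and soleus was sequenced, 48 libraries from 24 rats. The authors quantified transcripts with Salmon 0.9.1 against Ensembl Rnor_6.0, summed them per gene with tximport and deposited estimated counts, 66.0% of them not whole, which were rounded here. Whether strand was used is not settled by the sources used here, and Salmon divides reads between near-identical copies by estimate. The study's model was limma-voom with RIN as covariate. Here edgeR 4.0.16 (R 4.3.3; filterByExpr, TMM, glmQLFit, glmQLFTest) was fitted to all 48 libraries with 8 groups and RIN, and p-values were adjusted by Benjamini-Hochberg over 16960 genes (adjusted p under 0.05). CPM on the log2 scale used a prior count of 2. DESeq2 1.42.0, limma-voom, other scalings, filters, blocks and left-out libraries were alternatives. The script was tested on simulated counts. Permutations were run in Python with numpy.

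Symbols were paired with 1148 identifiers through the study's own gene tables, of which no other column was used. Named genes were Rbm3, 4 lists and the 5 genes most correlated with Rbm3 over libraries and over deviations. Rbm3, the lists and the tests were chosen with earlier results of these data known. Soleus and plantaris libraries of equal number are taken to pair within LRT CTRL, LRT HI and HRT HI, where r over genes of every pair was over 0.1 (lowest 0.128), a hint from the data and not a label. Without a block the fit takes both muscles of a rat as independent, so its p-values measure the spread between libraries, and with the rat as a block they measure the spread within rats.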

Additional observations from a re-analysis of the deposited data

Results flagged for a closer look

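In 2 of the 8 groups of 6 libraries a single library lay far from the rest by Dixon's ratio of gap to range at its 95% critical value. Plantaris HRT HI replicate 1 stood at 241 CPM of Rbm3 with a ratio of 0.73, and soleus HRT HI replicate 1 at 227 CPM with a ratio of 0.70. On the log2 CPM scale the ratios were 0.59 and 0.59, and no library of the 8 groups was past the critical value. About 1 in 20 independent groups is singled out so by chance, and these 2 libraries share a number and are taken to pair, so they are not independent.

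The HI change of 11 of the 55 list genes differed between the muscles in LRT by the interaction term of the edgeR fit (adjusted p under 0.05), and for none in HRT or between the lines. This fit takes the plantaris and soleus libraries as independent. With the rat as a block, 21 list genes passed in LRT, the 11 among them. That block was fitted over all 48 libraries, and the HRT CTRL numbers, which are not taken to pair, were among them. Plantaris minus soleus on the log2 scale was 3.80 for Ampd3, 2.61 for Myog, 2.13 for Trim63, 1.77 for Fbxo32, 1.75 for Zc3h12a, 1.48 for Thg1l, 1.36 for Ppan, 1.28 for Hspa5, 0.96 for Eif4g3, -0.83 for Slbp and -1.82 for Bhlhe41. Of all genes tested, 2.18% differed in this way without the block and 7.54% with it.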

How the results depend on the processing

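Every Rbm3 difference between HI and CTRL stayed positive under each alternative run, a direction for which the gene was chosen. Leaving out 1 library at a time gave 1.26 to 1.69 in LRT plantaris, 1.04 to 1.57 in HRT plantaris, 1.02 to 1.29 in LRT soleus and 0.82 to 1.201 in HRT soleus. No comparison of the lines passed the test under any alternative. For plantaris minus soleus, leaving out 1 library gave -0.58 to -0.44 in LRT CTRL, -0.60 to -0.37 in HRT CTRL, -0.42 to -0.01 in LRT HI and -0.48 to 0.18 in HRT HI, which turned positive without plantaris replicate 6 (0.08) or soleus replicate 1 (0.18). With the rat as replicate block it passed in LRT CTRL (-0.51, adjusted p = 0.0025) and HRT CTRL (-0.43, adjusted p = 0.0066), although same-numbered pairs 1 and 2 of HRT CTRL had an r over genes of -0.05 and -0.03, and 22 of 24 plantaris libraries correlated best with their own number. The same block gave 2 list genes whose HI change differed between the muscles in HRT, against 0 without it. The replicate number as block across groups, which share only a number, gave HI differences of 1.45, 1.30, 1.08 and 0.99, changed no call of Rbm3, moved no total of list genes passing by over 1.5 times and lost the 1 heat shock gene that rose in LRT soleus. Without HI replicate 1, an alternative chosen after seeing the data, LRT CTRL also passed (-0.51, adjusted p = 0.039). Heat shock genes passing fell to 1 in HRT plantaris without HI replicate 1 or with no filter on low counts, to 6 in LRT soleus without HI replicate 1, and with each muscle alone were 5 in LRT plantaris, 7 in LRT soleus and 5 in HRT soleus. For the relations with disuse genes, Gadd45a in plantaris passed with library totals (0.71) and with RIN regressed out (0.69). Hdac4 no longer passed without the 2 farthest libraries (0.53 in plantaris, 0.67 in soleus) or without HI replicate 1 (0.53 and 0.69). The causes were not tested. The RIN slope has no value without RIN and was not run for each muscle alone. The counting error of Rbm3 was at most 3.29%, and the sources of the remaining spread between libraries were not separated.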
